A study of Homo sapiens with 12 samples.

Results

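The RNA of 9 genes that govern pericellular proteolysis was followed in HOS, a human osteosarcoma cell line in which the level of the adaptor protein CIN85 had been manipulated. The genes were chosen by symbol, by mapping the Ensembl identifiers of the deposited count table to GENCODE names: PLAU, PLAT and PLAUR (the plasminogen activators and a receptor), SERPINE2, SERPINB7 and SERPINF1 (serpins), TFPI and TFPI2 (Kunitz domain inhibitors) and THBS1. They are 9 of 25141 genes in the table. All 9 passed the filter on low counts that left 12542 genes for testing, and the smallest count of any of them in any library was 8, for SERPINF1.

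The 12 libraries fell into 4 groups of 3. upCIN85 cells were a geneticin-resistant pool transfected with the pRc/CMV2-Rukl plasmid, which encodes full-length CIN85, and Mock cells carried the empty vector. For the knockdown, siCIN85 cells were given several siRNAs to CIN85 as a mix, and siNeg cells a non-targeting siRNA. All groups derive from the HOS line, no allele or agent other than these is given, and each pool is 1 selected population rather than separate clones. Libraries were made from total RNA with a kit that reads the 3′ end of transcripts, so a count is a number of reads at the end of a gene's transcripts. In bulk libraries such as these, fewer cells with a transcript and less of it per cell cannot be told apart.

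Plasminogen activators are serine proteases that cut plasminogen into plasmin, which degrades fibrin and matrix proteins, and the urokinase receptor holds one of them at the cell surface. Serpins inhibit most such proteases by a covalent trap, whereas Kunitz domain proteins block the active site reversibly. Tumour cells that move through bone and stroma, osteosarcoma cells among them, use this system for focused proteolysis at their surface.

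Total counts per library lay between 3540641 and 6049458, and all 6 siRNA libraries (at most 4174860) were shallower than the 6 plasmid libraries (at least 5334731). SH3KBP1, the gene of CIN85, stood at 77.5 ± 5.0 CPM in Mock and 81.3 ± 9.61 CPM in upCIN85, and at 85.1 ± 2.37 CPM in siNeg and 7.54 ± 3.19 CPM in siCIN85 (counts scaled to a common library size, SD, n = 3 each). It fell by 3.51 on the log2 scale in siCIN85 versus siNeg (edgeR adjusted P = 5.09e-08). In upCIN85 versus Mock its log2FC was 0.07, with a 95% confidence interval of -0.26 to 0.40, so the libraries labelled upCIN85 did not stand above Mock. The sources used here do not give the 3′ end of the plasmid's transcript, and a 3′ read outside it would not count it. This gene is therefore no check of the overexpression label. The paper reports overexpressed CIN85 protein in the pool by western blot, and protein was not measured in these libraries. Summed markers of the mesenchymal and osteoblast lineage reached 1200 to 2570 CPM in every library, and were lower in siCIN85 (1200 to 1610 CPM) than in siNeg (1720 to 2090 CPM). Of the 10 genes of that list, 8 were in the table and 7 were tested. In upCIN85 2 of the 7 passed as higher, COL1A2 (log2FC 1.35, edgeR adjusted P = 0.0439) and ALPL (1.76, adjusted P = 0.034), and 0 passed as lower. COL1A2 overlapped between upCIN85 (62.9 to 212 CPM) and Mock (41.9 to 84.8 CPM). Of all genes tested, 0.439% passed as higher and 0.789% as lower. An unadjusted P below 0.05 was reached by 5 of the 7, against 14.5% of all genes. SPARC, among these 5, was lower in upCIN85 than in Mock without overlap (log2FC -0.35, edgeR adjusted P = 0.33). In siCIN85 none passed with edgeR, against 1.04% of all genes, and 4 had an unadjusted P below 0.05, against 15.7%. The fitted values of ALPL (1.70) and SPP1 (1.19) in siCIN85 were opposite in sign to the change of the sum. Markers of endothelial cells, platelets and leukocytes summed to at most 9.86, 2.02 and 5.82 CPM, and those of epithelial cells to 71.9 to 84.8 CPM in upCIN85 against 52.1 to 56.8 CPM in Mock. The part of these marker differences in the results below was not tested.

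PLAU, PLAUR and SERPINB7 passed the test in one of the comparisons described below, and TFPI2 in the contrast between them. The 250 bases before their RefSeq transcription starts (GRCh38.p14) are shown first, because these are the members whose RNA differed by test. Sequences run 5′ to 3′ along the gene's strand, and capitals mark letters that match a searched motif on either strand: AP-1 (TGANTCA), ETS (AGGAAG), SP1 (GGGCGG), the TATA box (letters TATAAA) and NF-κB by its consensus. Windows were read from the RefSeq table for 7 of the 9 genes and there were 11 of them, since PLAU and SERPINE2 have several listed starts and SERPINB7 has more.
PLAU downstream start, chr10:73910882-73911131, plus strand: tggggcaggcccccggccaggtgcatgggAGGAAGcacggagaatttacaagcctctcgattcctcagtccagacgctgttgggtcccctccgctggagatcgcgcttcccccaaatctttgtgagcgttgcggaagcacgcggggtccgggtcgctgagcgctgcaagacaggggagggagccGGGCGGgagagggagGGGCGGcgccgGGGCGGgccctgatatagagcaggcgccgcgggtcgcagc
PLAUR, chr19:43670170-43670419, minus strand: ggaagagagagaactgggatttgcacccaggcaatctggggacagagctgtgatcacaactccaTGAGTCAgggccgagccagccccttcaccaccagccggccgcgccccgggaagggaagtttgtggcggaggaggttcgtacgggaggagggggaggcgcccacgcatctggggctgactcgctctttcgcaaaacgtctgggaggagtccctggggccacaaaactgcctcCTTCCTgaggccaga
SERPINB7 middle start, chr18:63775168-63775417, plus strand: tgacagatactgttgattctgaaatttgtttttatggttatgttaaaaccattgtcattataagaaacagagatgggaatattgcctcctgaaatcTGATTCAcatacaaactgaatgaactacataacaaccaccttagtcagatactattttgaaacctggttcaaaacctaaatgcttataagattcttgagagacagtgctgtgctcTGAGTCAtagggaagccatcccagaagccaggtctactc
SERPINB7 downstream start, chr18:63777531-63777780, plus strand: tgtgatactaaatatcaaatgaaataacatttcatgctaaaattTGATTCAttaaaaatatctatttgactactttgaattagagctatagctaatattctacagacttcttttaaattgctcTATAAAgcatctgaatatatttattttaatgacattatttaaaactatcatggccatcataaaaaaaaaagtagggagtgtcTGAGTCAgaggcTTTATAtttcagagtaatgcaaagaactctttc
TFPI2, chr7:93890754-93891003, minus strand: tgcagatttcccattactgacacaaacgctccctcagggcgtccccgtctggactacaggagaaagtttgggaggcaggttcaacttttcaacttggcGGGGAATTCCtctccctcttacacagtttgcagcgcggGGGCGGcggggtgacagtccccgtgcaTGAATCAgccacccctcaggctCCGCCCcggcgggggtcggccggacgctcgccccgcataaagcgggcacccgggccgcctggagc
AP-1 letters stood in 4 of the 11 windows, those of PLAUR, TFPI2 and the middle and downstream starts of SERPINB7, and in 6.57% of all 35116 promoter windows of the same length. The PLAUR match began 186 bases before the start, the TFPI2 match 87 bases before it, and both SERPINB7 windows held a pair of matches, the nearest beginning 39 and 45 bases before their starts. The PLAU window held 3 SP1 matches, beginning 66, 51 and 40 bases before the start, and an ETS match, and the window of its upstream start held none of the searched letters. SP1 letters occur in 42.6% of all windows, ETS letters in 28.7%, TATA box letters in 10.7% and the NF-κB consensus in 9.96%. The TFPI2 window held the NF-κB consensus beginning 152 bases before the start, and the upstream SERPINB7 window, which is not shown, held it as well. No 2 matches overlapped in the windows shown. A match describes letters only and says nothing of binding.

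Levels were compared between the genes as CPM divided by the length of the gene's exons in kilobases, with the caveat that a 3′ kit counts about 1 read per transcript whatever its length. On that scale the mean over all 12 libraries was highest for SERPINE2 (protease nexin-1, an inhibitor of thrombin and urokinase) at 16.7 CPM per kb. TFPI2 followed at 13.5, PLAU at 12.5, PLAUR at 10.9, THBS1 at 10.3, TFPI at 8.26, PLAT at 7.31, SERPINB7 at 6.19 and SERPINF1 at 2.94 CPM per kb. Each neighbouring pair in this order overlapped in range over the 12 libraries, and SERPINE2 was above TFPI2 in only 6 of 12. Without division by length, the closer scale for such a kit, the order began SERPINE2 (148 CPM), TFPI (96.8 CPM) and THBS1 (94.5 CPM). There PLAU (36.9 CPM) and TFPI2 (36.2 CPM) stood below PLAUR (48.6 CPM) and PLAT (48.3 CPM).

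On the scale per kilobase the order changed between groups. In upCIN85, SERPINE2 led at 19.9 ± 4.83 CPM per kb (SD, n = 3), with no overlap with PLAUR, the next gene, at 8.42 ± 2.53, while the 6 genes from PLAUR to TFPI2 followed one another between 8.42 and 7.44 CPM per kb with overlapping ranges. In siCIN85, TFPI2 (20.3 ± 6.29), SERPINE2 (20.2 ± 5.59) and PLAUR (20.1 ± 8.85 CPM per kb) could not be ordered beyond their spread, and PLAU (16.3 ± 0.961) stood above SERPINB7 (12.2 ± 0.724) without overlap. In siNeg the only neighbours without overlap were THBS1 above TFPI and PLAT above SERPINB7, and in Mock every neighbouring pair overlapped. In CPM, the closer scale here, SERPINE2 had the highest mean in Mock (128), upCIN85 (177) and siCIN85 (179 CPM). Its siCIN85 libraries (135 to 233 CPM) lay above those of PLAUR (51.2 to 130) and TFPI2 (37.9 to 71.6) without overlap. THBS1 (103 to 116 CPM), TFPI (84.8 to 131) and SERPINE2 (74 to 138) overlapped in siNeg.

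**Figure D1:**
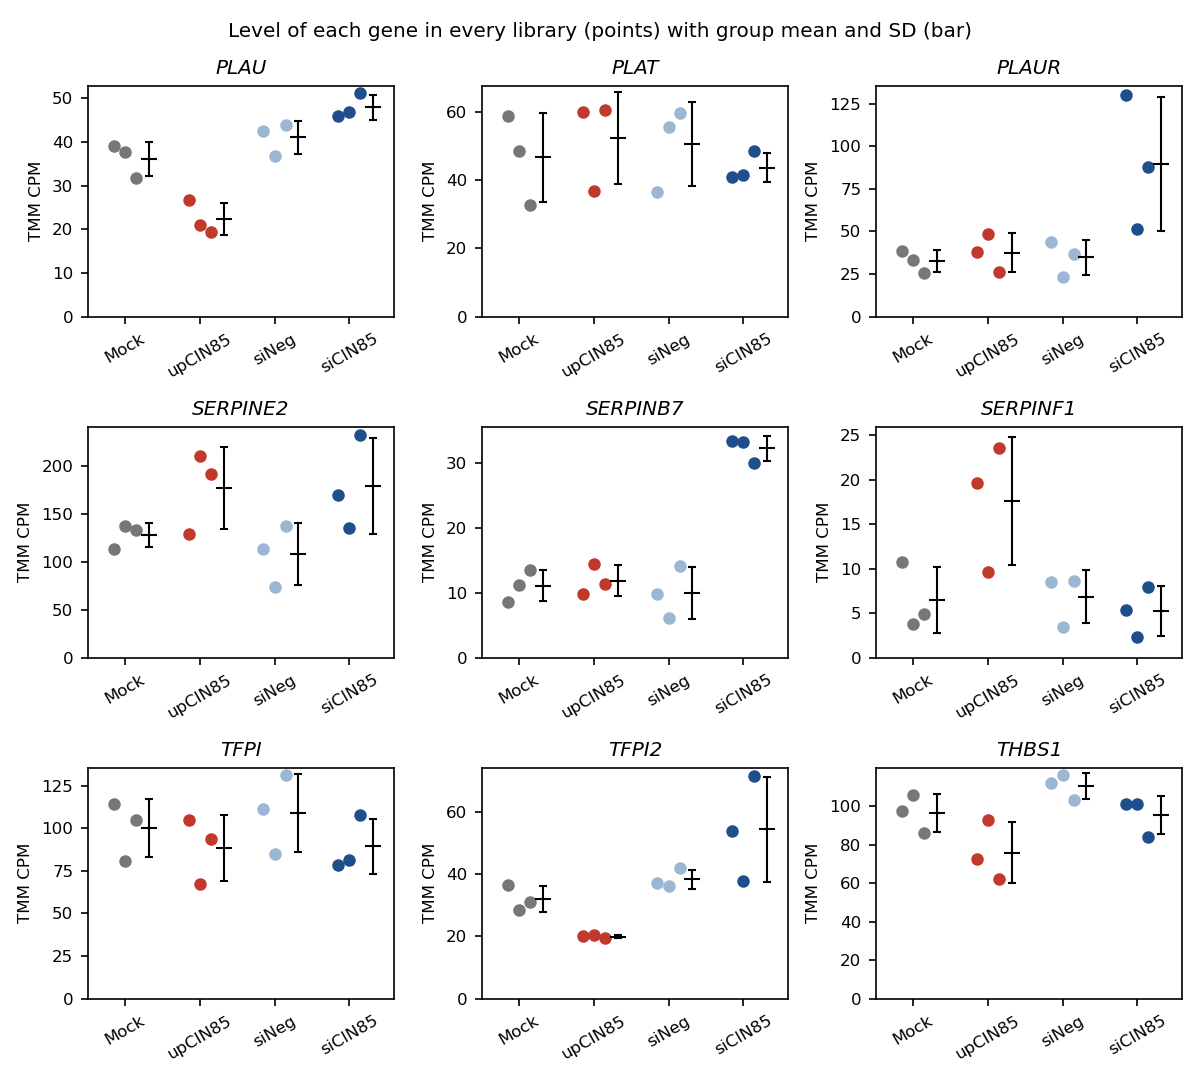
TMM-normalized CPM (vertical axis, linear, from 0) of the 9 genes in each of the 12 libraries, as points by group, with the mean and SD of each group (n = 3) as a bar. PLAU is lowest in the 3 upCIN85 libraries (19.4 to 26.6 CPM), and PLAUR and SERPINB7 are highest in the 3 siCIN85 libraries.

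The urokinase-type activator PLAU (ENSG00000122861, chr10:73909177-73917497 in GRCh38) was lower in upCIN85 than in Mock. The gene measured 39.1, 37.7 and 31.7 CPM in Mock replicates 1 to 3, and 26.6, 21.1 and 19.4 CPM in upCIN85. Every upCIN85 library lay below every Mock library, and each also lay below the Mock library of its own number, at a ratio of 0.679, 0.559 and 0.611. The change was -0.70 on the log2 scale, SE 0.145, or 1.62-fold lower (edgeR's quasi-likelihood test, adjusted P = 0.0261). In siCIN85 versus siNeg the values were 45.9, 46.8 and 51.2 CPM against 42.5, 36.7 and 44.0 CPM. The groups did not overlap, but the log2FC of 0.23 (95% confidence interval -0.078 to 0.53) did not pass (edgeR adjusted P = 0.463). The call in upCIN85 was lost without Mock replicate 1 (edgeR adjusted P = 0.0857), Mock replicate 2 (0.129) or upCIN85 replicate 3 (0.157). C10orf55, which overlaps PLAU on the opposite strand, had 0 to 5 counts in any library.

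The tissue-type activator PLAT (ENSG00000104368, chr8:42175233-42207724), the enzyme best known for dissolving clots in blood vessels, did not pass in any comparison. Its values were 58.7, 48.6 and 32.8 CPM in Mock and 60.0, 36.8 and 60.5 CPM in upCIN85. They were 36.5, 55.7 and 59.6 CPM in siNeg and 40.8, 41.6 and 48.6 CPM in siCIN85. All 4 groups overlapped, and the group means (43.7 to 52.4 CPM) lay closer together than the libraries of Mock, upCIN85 or siNeg. The log2FC was 0.17 (95% confidence interval -0.29 to 0.63, edgeR adjusted P = 0.782) in upCIN85 and -0.21 (-0.70 to 0.27, adjusted P = 0.693) in siCIN85.

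PLAUR (ENSG00000011422, chr19:43646095-43670547), the GPI-anchored receptor that binds urokinase, was higher in siCIN85 than in siNeg. The siCIN85 libraries held 130, 51.2 and 87.7 CPM and the siNeg libraries 43.7, 23.5 and 37.0 CPM. The groups did not overlap, although the lowest siCIN85 library exceeded the highest siNeg library by little, and siCIN85 replicate 1 stood well above the others. The ratio to the siNeg library of the same number was 2.96, 2.18 and 2.37. The log2FC was 1.37, SE 0.292, or 2.59-fold (edgeR adjusted P = 0.0306). In upCIN85 versus Mock the values overlapped, at 38.1, 48.5 and 26.0 CPM against 38.4, 33.3 and 25.8 CPM, with a log2FC of 0.21 (-0.40 to 0.82, edgeR adjusted P = 0.793). The siCIN85 call was lost in a fit of only the 6 siRNA libraries (edgeR adjusted P = 0.0787) and without siNeg replicate 1 (0.0687), siNeg replicate 2 (0.171), siCIN85 replicate 1 (0.199) or siCIN85 replicate 3 (0.0939).

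SERPINB7 (ENSG00000166396, chr18:63752935-63805376), an intracellular clade B serpin also called megsin, showed the largest fitted change of the 9 genes in siCIN85 versus siNeg. It measured 33.5, 33.3 and 30.1 CPM in siCIN85 and 9.75, 6.11 and 14.1 CPM in siNeg. The siCIN85 libraries lay close together and all were above every library of the other 3 groups. The log2FC was 1.70, SE 0.243, or 3.25-fold (edgeR adjusted P = 0.00427), and it passed under all 19 alternatives tried, with log2FC values between 1.43 and 2.02. In upCIN85 versus Mock the gene measured 9.79, 14.5 and 11.4 CPM against 8.65, 11.2 and 13.5 CPM. These groups overlapped, with a log2FC of 0.10 (-0.41 to 0.60, edgeR adjusted P = 0.895).

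SERPINE2 (ENSG00000135919, chr2:223975112-224039319), a serpin bound to the cell surface and matrix, had a higher mean in both manipulated groups than in their controls, and neither difference passed in the fit of all 12 libraries by group. The values were 129, 211 and 192 CPM in upCIN85 against 114, 138 and 133 CPM in Mock, and 170, 135 and 233 CPM in siCIN85 against 113, 74.0 and 138 CPM in siNeg. Both pairs of groups overlapped, yet each manipulated library was above the control library of its own number in 3 of 3 pairs. The ratios were 1.13, 1.53 and 1.44 in upCIN85 and 1.5, 1.82 and 1.69 in siCIN85. The upCIN85 cells gave a log2FC of 0.47, SE 0.213 (edgeR adjusted P = 0.319), and the siCIN85 cells 0.73, SE 0.219 (edgeR adjusted P = 0.115). In a fit with each replicate number as a block, over both experiments, which sets same-numbered libraries against each other, the values were 0.45 (edgeR adjusted P = 0.0052) and 0.73 (adjusted P = 1.88e-04). Both values also passed without the filter on low counts (edgeR adjusted P = 0.0114 and 6.11e-06), and the siCIN85 value passed without siCIN85 replicate 2 (0.88, edgeR adjusted P = 0.0464).

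SERPINF1 (ENSG00000132386, chr17:1761959-1777574) encodes pigment epithelium-derived factor, a secreted serpin without protease inhibition that is known to oppose vessel growth. It had the lowest mean of the 9 genes over the 12 libraries, at 8 to 139 counts per library, although in upCIN85 its mean of 17.6 CPM was above that of SERPINB7 (11.9 CPM). It measured 19.6, 9.64 and 23.6 CPM in upCIN85 against 10.7, 3.73 and 4.91 CPM in Mock. The upCIN85 replicate 2 fell below Mock replicate 1, so the groups overlapped, while each upCIN85 library was above its own-numbered Mock library at a ratio of 1.83, 2.58 and 4.81. The log2FC was 1.46, SE 0.405, or 2.74-fold (edgeR adjusted P = 0.0802, and 2.86e-04 under the block). With DESeq2, the method of the paper, SERPINF1 passed (adjusted P = 0.0448), and the paper lists it among its genes higher in upCIN85. It also passed without Mock replicate 1 (log2FC 2.02, edgeR adjusted P = 0.0492) or upCIN85 replicate 2 (1.75, adjusted P = 0.0289). In siCIN85 versus siNeg the values were 5.34, 2.31 and 7.92 CPM against 8.50, 3.42 and 8.59 CPM, with overlap and a log2FC of -0.37 (-1.43 to 0.68, edgeR adjusted P = 0.762).

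TFPI (ENSG00000003436, chr2:187464230-187565760), which inhibits the tissue factor and factor VIIa complex, passed in no comparison. It measured 105, 67.2 and 93.5 CPM in upCIN85 against 114, 81.0 and 105 CPM in Mock, and 78.6, 81.5 and 108 CPM in siCIN85 against 111, 84.8 and 131 CPM in siNeg. All groups overlapped, with the manipulated library lower in all 3 pairs of each experiment. The log2FC was -0.17 (-0.56 to 0.21, edgeR adjusted P = 0.718) and -0.29 (-0.68 to 0.11, adjusted P = 0.479).

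TFPI2 (ENSG00000105825, chr7:93885396-93890991), a matrix-bound Kunitz inhibitor of plasmin and trypsin, measured 20.1, 20.4 and 19.4 CPM in upCIN85 against 36.5, 28.4 and 31.2 CPM in Mock. These groups did not overlap, and the upCIN85 libraries lay close together, at an SD of 0.537 CPM. The log2FC was -0.68, SE 0.185 (edgeR adjusted P = 0.0767, and 0.00423 under the block). It passed without siCIN85 replicate 2 (adjusted P = 0.0368) or siCIN85 replicate 3 (0.0414), which enter through the shared spread of the edgeR fit. In siCIN85 it measured 53.9, 37.9 and 71.6 CPM against 37.2, 36.2 and 41.9 CPM in siNeg. Here siCIN85 replicate 2 lay within the siNeg range, and the log2FC was 0.51, SE 0.18 (edgeR adjusted P = 0.18, and 0.0357 under the block). With the block in the siRNA experiment alone it was 0.47 and did not pass (edgeR adjusted P = 0.0866). Without siCIN85 replicate 2 it was 0.69 (edgeR adjusted P = 0.0285). Its overlapping antisense transcript AC002076.1 had 0 to 2 counts.

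THBS1 (ENSG00000137801, chr15:39581079-39599466), a matrix glycoprotein that binds integrins and activates latent TGF-β, measured 72.7, 93.0 and 61.9 CPM in upCIN85 against 97.4, 106 and 86.1 CPM in Mock. The groups overlapped through upCIN85 replicate 2, with the lower value in upCIN85 in each same-numbered pair. The log2FC was -0.34, SE 0.138 (edgeR adjusted P = 0.247, and 0.0244 under the block). In siCIN85 it measured 101, 101 and 84.0 CPM against 112, 116 and 103 CPM in siNeg, without overlap, at a log2FC of -0.21 (-0.50 to 0.087, edgeR adjusted P = 0.493). FSIP1, which overlaps THBS1 on the opposite strand, had 5 to 17 counts per library, and the sources used here do not say whether counting used strand.

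**Figure D2:**
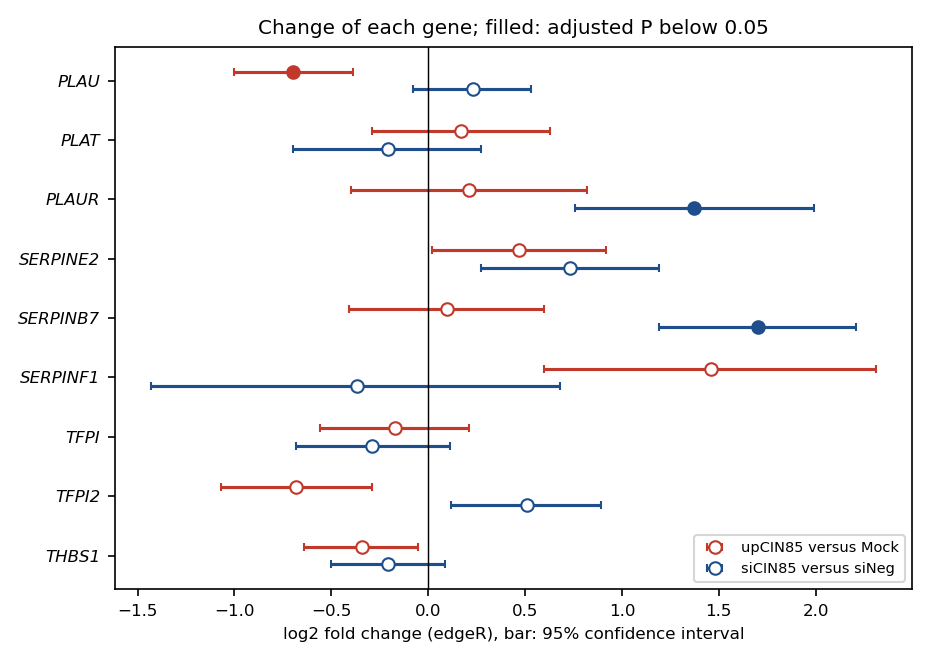
Fitted log2FC (horizontal axis) of the 9 genes in upCIN85 versus Mock (red) and siCIN85 versus siNeg (blue), with 95% confidence intervals as bars, and with filled points for an edgeR adjusted P below 0.05. The filled points are PLAU at -0.70 in upCIN85, and PLAUR at 1.37 and SERPINB7 at 1.70 in siCIN85.

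Counted over the 9 genes in upCIN85 versus Mock, 0 rose, 1 fell (PLAU) and 8 did not pass, against a background of 1.23% of the 12542 genes tested that passed in either direction, 0.439% as higher and 0.789% as lower. At an unadjusted P below 0.05, 5 of the 9 were reached, against 14.5% of all genes, and 2 of the 9 had groups that did not overlap, against 20.7%. The median log2FC of the 9 genes was 0.10 and that of all genes 0.0072. In siCIN85 versus siNeg, 2 rose (PLAUR and SERPINB7), 0 fell and 7 did not pass, against 1.04% of all genes in either direction and 0.59% as higher and 0.454% as lower. Here 4 of the 9 had an unadjusted P below 0.05, against 15.7% of all genes, and 4 of the 9 did not overlap, against 20.2%. The median was 0.23 for the 9 genes and -0.0052 for all genes. The members were chosen with earlier results of these data known, so the shares here and in the contrast below are a description only. Under the block, 5 of the 9 passed in upCIN85 (PLAU, SERPINE2, SERPINF1, TFPI2 and THBS1) and 4 in siCIN85 (PLAUR, SERPINB7, SERPINE2 and TFPI2). That fit called 1035 and 968 of all genes, against 154 and 131 without the block. The count of members in upCIN85 was 0 without Mock replicate 2 or upCIN85 replicate 3, where 34 and 25 of all genes passed, and 2 without upCIN85 replicate 2, siCIN85 replicate 2 or siCIN85 replicate 3, where 260, 180 and 182 passed. The count in siCIN85 was 1 without siNeg replicate 1 or 2 or siCIN85 replicate 1 or 3, where 9 to 17 of all genes passed, and 4 without siCIN85 replicate 2, where 362 passed.

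**Figure D3:**
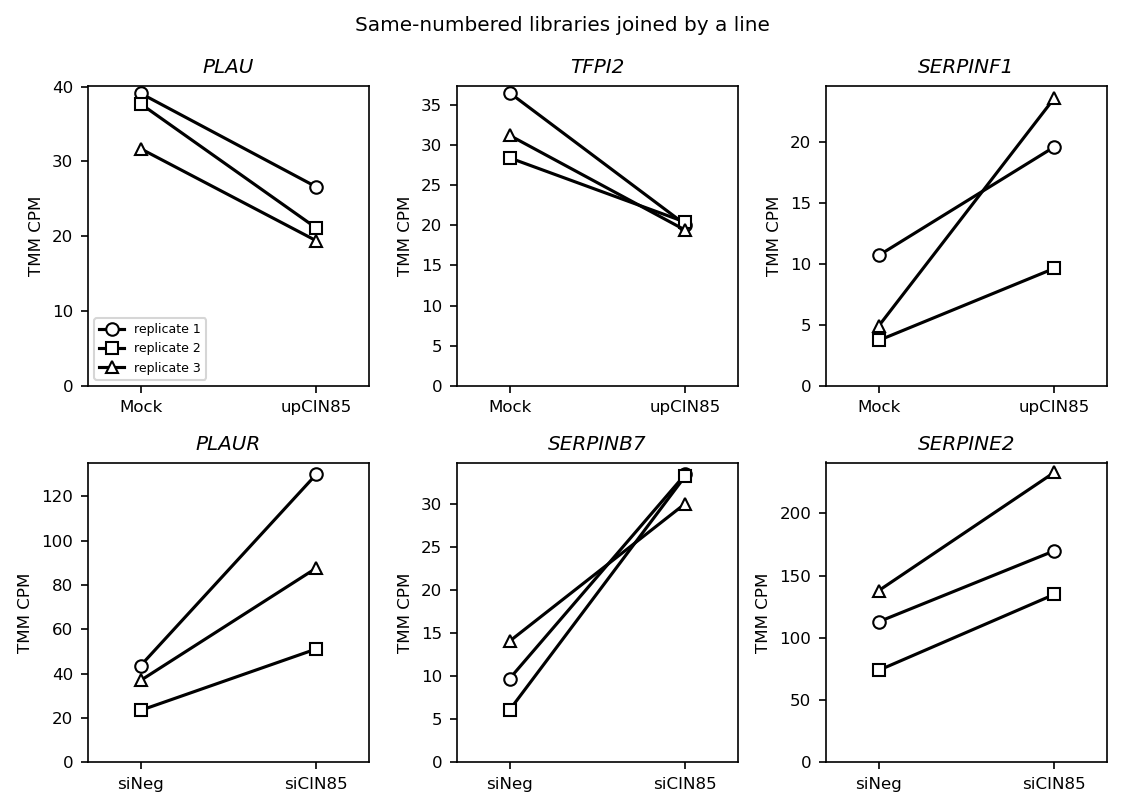
TMM-normalized CPM (vertical axis, linear, from 0) of 6 of the genes in the control and the manipulated library of each replicate number, joined by a line, with PLAU, TFPI2 and SERPINF1 in the upCIN85 experiment above and PLAUR, SERPINB7 and SERPINE2 in the siCIN85 experiment below. From Mock to upCIN85 all 3 lines fall for PLAU and TFPI2 and rise for SERPINF1, and from siNeg to siCIN85 they rise for PLAUR, SERPINB7 and SERPINE2.

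The contrast of both manipulations asked whether the change in upCIN85 versus Mock differed from that in siCIN85 versus siNeg. It passed for 3 of the 9 genes, all with the lower value in the upCIN85 effect, against 0.973% of all genes in either direction with 0.686% in that direction and 0.287% in the other. For PLAU the difference was -0.92 on the log2 scale, SE 0.204 (edgeR adjusted P = 0.0396), for TFPI2 it was -1.18, SE 0.259 (adjusted P = 0.0381), and for SERPINB7 it was -1.60, SE 0.342 (adjusted P = 0.0341). The fitted values of PLAU and TFPI2 had opposite signs in the 2 experiments, whereas for SERPINB7 the value in upCIN85 was near 0. PLAUR (-1.16, SE 0.411, edgeR adjusted P = 0.198) and SERPINF1 (1.83, SE 0.645, adjusted P = 0.196) did not pass, and passed under the block (adjusted P = 8.73e-04 and 0.00438) and without the filter on low counts (6.47e-05 and 2.18e-04). For SERPINE2 the difference was -0.26 (95% confidence interval -0.90 to 0.38), for THBS1 -0.14 (-0.55 to 0.28), for TFPI 0.11 (-0.44 to 0.66) and for PLAT 0.38 (-0.29 to 1.05). With 1 library left out, the adjusted P of the 3 that passed reached up to 0.122 for PLAU, 0.117 for TFPI2 and 0.109 for SERPINB7. The count was 0 without Mock replicate 2 or 3, upCIN85 replicate 3, siNeg replicate 1 or 2, or siCIN85 replicate 1, and 1 without Mock replicate 1, upCIN85 replicate 1, siNeg replicate 3, or siCIN85 replicate 2 or 3.

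Mock and siNeg are both controls, and they differ in what was transfected, in selection and in depth. None of the 9 genes passed with edgeR or with DESeq2, and 0 had an unadjusted P below 0.05, while 0.526% of all genes passed. The log2FC values ran from -0.25 for SERPINE2 to 0.26 for TFPI2, and all 9 genes overlapped between these groups.

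The balance of activators and inhibitors was described by the ratio of summed CPM in each library, without a test. The sum of PLAU and PLAT against SERPINE2 was 0.857, 0.625 and 0.487 in Mock and 0.669, 0.274 and 0.417 in upCIN85. It was 0.699, 1.25 and 0.752 in siNeg and 0.510, 0.657 and 0.429 in siCIN85. The ratio was below 1 in 11 of the 12 libraries. As mean log2 ratios these were -0.65 ± 0.409 in Mock against -1.24 ± 0.645 in upCIN85, and -0.20 ± 0.455 in siNeg against -0.93 ± 0.309 in siCIN85 (SD, n = 3 each). The mean was thus lower in both manipulated groups than in their controls, by -0.59 with overlap in upCIN85 and by -0.73 without overlap in siCIN85, and the manipulated library was the lower one in 3 of 3 same-numbered pairs of each experiment. Divided by exon length, the mean log2 ratio turned positive in Mock (0.41), siNeg (0.87) and siCIN85 (0.22) and stayed negative in upCIN85 (-0.35). The sign of the ratio thus depended on the scale, while the differences between groups kept their sign. With a 3′ kit, whose counts do not grow with transcript length, the CPM ratio is the closer scale for which side is more abundant.

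A wider sum took SERPINE2, SERPINB7, TFPI and TFPI2. Of these genes only SERPINE2 is described above as an inhibitor of urokinase, so the sum is not one of inhibitors of the activators alone. Against it the mean log2 ratio was -1.73 ± 0.349 in Mock and -2.01 ± 0.413 in upCIN85, and -1.52 ± 0.348 in siNeg and -1.93 ± 0.224 in siCIN85. This ratio was below 1 in all 12 libraries, per kilobase as well, and it was lower in the manipulated library in 2 of 3 pairs for upCIN85 and 3 of 3 for siCIN85. Within each experiment the groups overlapped in CPM, whereas per kilobase the 3 siCIN85 libraries (-1.38 ± 0.221) lay below the 3 siNeg libraries (-0.86 ± 0.235) without overlap.

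**Figure D4:**
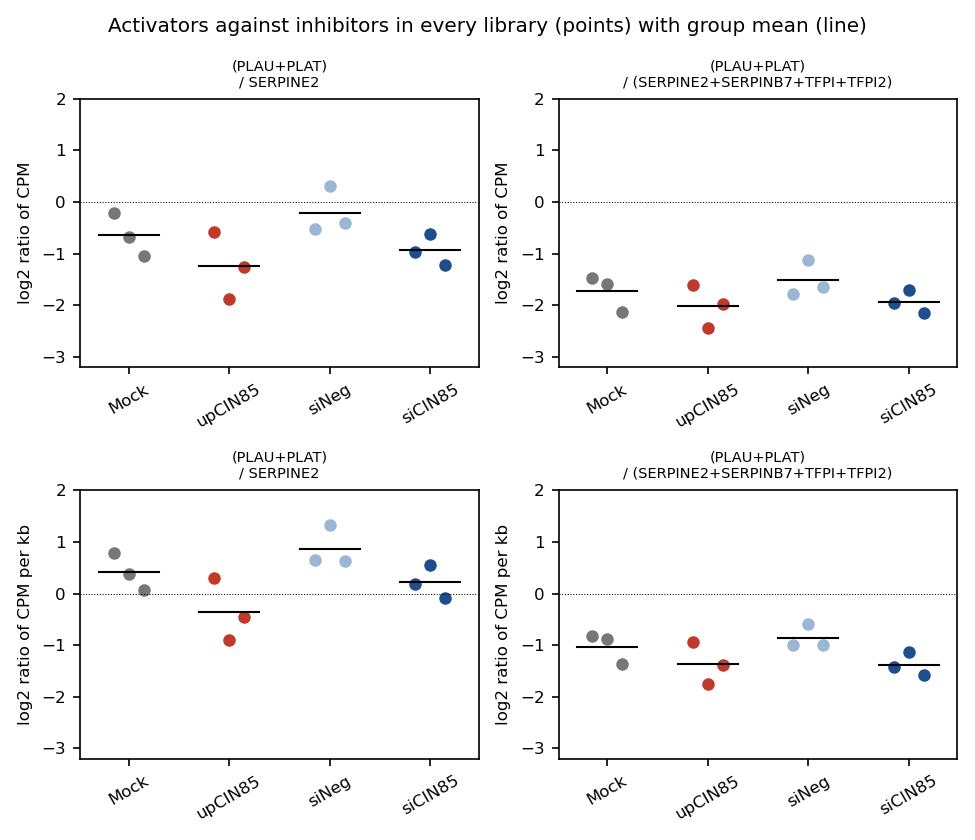
Log2 ratio of summed PLAU and PLAT to SERPINE2 alone (left) and to the sum of SERPINE2, SERPINB7, TFPI and TFPI2 (right) in each library (points) with the group mean (line), as CPM in the upper row and as CPM per kilobase of exon in the lower row, and with a dotted line at equality. Against SERPINE2 alone the means run from -1.24 to -0.20 in CPM and from -0.35 to 0.87 per kilobase, and against the wider set all points lie below the dotted line.

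Other genes of the pathways were read from lists written from general knowledge, and the lists were chosen with earlier results of these data known. Of 90 genes in 5 lists, 42 were tested. In upCIN85 versus Mock, 0 rose, 1 fell (PLAU itself) and 41 did not pass, and 17 of the 42 (40.5%) had an unadjusted P below 0.05, against 14.5% of all genes. In siCIN85 versus siNeg, 3 rose (PLAUR, SERPINB7 and F3), 1 fell (ITGAV) and 38 did not pass, with 15 of the 42 (35.7%) at an unadjusted P below 0.05, against 15.7%. The lists share genes with the 9, so these shares are not separate from the counts above and are a description only.

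In the plasminogen activation list, 11 of 20 genes were tested, and PLAU in upCIN85 and PLAUR in siCIN85 were the only ones to pass, with medians of 0.12 and -0.069. PLG, the gene of plasminogen itself, was not analysed here, and SERPINB2, another inhibitor of the activators, was too low for testing. LRP1, the receptor that takes up protease and inhibitor complexes, measured 12.9, 6.70 and 12.4 CPM in upCIN85 against 6.02, 6.45 and 4.56 CPM in Mock. The groups did not overlap, and the log2FC of 0.91, SE 0.281, did not pass (edgeR adjusted P = 0.118, and 0.0286 under the block). Without upCIN85 replicate 2 it was 1.15 (edgeR adjusted P = 0.0319). In siCIN85 its log2FC was 0.05 (edgeR adjusted P = 0.965). In the serpin list, 8 of 33 genes were tested, with 0 calls and a median of 0.014 in upCIN85, and SERPINB7 alone and a median of 0.25 in siCIN85. SERPINB8, another clade B serpin, was called with PLAU, SERPINB7 and TFPI2 in the difference between the experiments, at -1.31, SE 0.295 (edgeR adjusted P = 0.0433), and was named after its values were seen. That call held in 9 of 18 alternatives.

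In the list of the tissue factor pathway and thrombin receptors, 11 of 20 genes were tested. F3, tissue factor, the cell surface protein that starts coagulation and is the target of TFPI, measured 88.3, 73.7 and 74.7 CPM in siCIN85 against 48.7, 40.3 and 54.7 CPM in siNeg. It was the only gene of this list to pass, at a log2FC of 0.72, SE 0.163, or 1.65-fold (edgeR adjusted P = 0.0413), without overlap, and in upCIN85 its log2FC was 0.21 (adjusted P = 0.588). Between the controls, F3 in siNeg lay below Mock (55.1 to 67.1 CPM) without overlap. That log2FC of -0.34 did not pass (edgeR adjusted P = 0.402). The siCIN85 call of F3 was lost in a fit of the 6 siRNA libraries (edgeR adjusted P = 0.0571) and in 7 of the fits that left out 1 library: any Mock library, siNeg replicate 1 or 2, and siCIN85 replicate 1 or 3, with adjusted P of up to 0.206. The list's median was -0.23 in upCIN85 and 0.23 in siCIN85. In the Kunitz list 6 of 10 genes were tested, with 0 calls in either comparison and medians of -0.049 and -0.19. In each comparison 3 of 6 had an unadjusted P below 0.05, against 14.5% of all genes in upCIN85 and 15.7% in siCIN85. In the list of thrombospondins and their receptors 10 of 14 were tested, with 0 calls and a median of -0.30 in upCIN85. There 7 of 10 had an unadjusted P below 0.05, against 14.5% of all genes. In siCIN85 the median was -0.19 and only ITGAV, the integrin αV subunit, passed, falling by 0.71 on the log2 scale, SE 0.131 (edgeR adjusted P = 0.0189). That call was lost in a fit of the 6 siRNA libraries (edgeR adjusted P = 0.0714). It was also lost without siNeg replicate 1 (adjusted P = 0.0737), siNeg replicate 2 (0.0735), siCIN85 replicate 1 (0.0738) or siCIN85 replicate 3 (0.0571). In upCIN85 versus Mock ITGAV was lower as well, without overlap, at a log2FC of -0.28 that did not pass (edgeR adjusted P = 0.326). Its siNeg libraries stood above Mock without overlap (log2FC 0.29, edgeR adjusted P = 0.367).

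**Figure D5:**
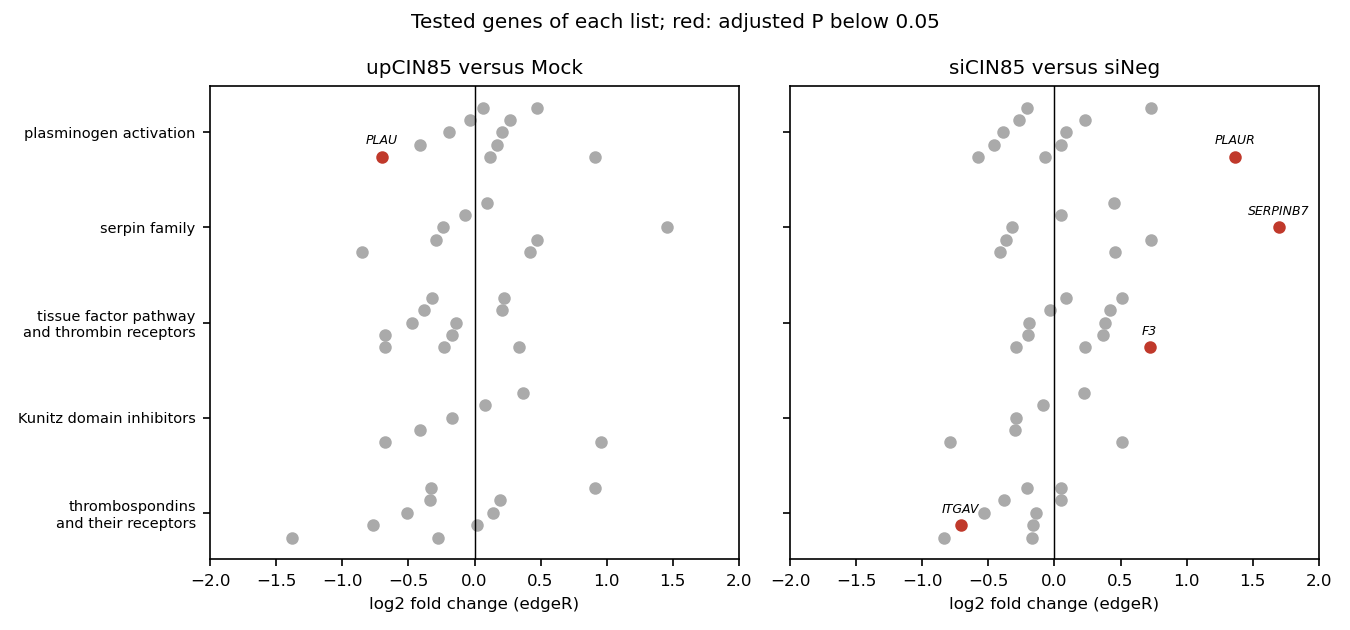
Fitted log2FC (horizontal axis) of every tested gene of the 5 pathway lists in both comparisons, with red points for an edgeR adjusted P below 0.05. The red points are PLAU in upCIN85, and PLAUR, SERPINB7, F3 and ITGAV in siCIN85.

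The genes whose log2 CPM followed each member most closely over the 12 libraries, by Pearson's r and as a description only, differed from member to member. The libraries share 2 experiments with different depths, so such r values carry the differences between groups. For PLAU these were QRFPR (r = 0.943), AKAP12 (0.937) and MTSS1 (0.936), and for TFPI2 they were LTB (0.957), IRAK2 (0.937) and ZC3H12C (0.924). PLAUR was closest to UAP1L1 (0.967), PHKG2 (0.965) and RPIA (0.954), and SERPINB7 to TSGA10 (0.951), WASHC2A (0.925) and SNCAIP (0.915). SERPINE2 was closest to BEND7 (0.950), TNFRSF21 (0.949) and NEMP2 (0.924), SERPINF1 to MMP2 (0.935), DDB2 (0.929) and GPNMB (0.927), and THBS1 to COL18A1 (0.945), SSSCA1 (0.942) and STT3A (0.940). For PLAT (PLCE1, 0.865, MAGEE1, 0.862, and KMT2E, 0.849) and TFPI (AL358334.2, 0.906, TPST1, 0.855, and RIPOR3, 0.834) the nearest genes were less alike. Among the 9 genes themselves, PLAU and TFPI2 were the closest pair (r = 0.902), PLAUR and SERPINB7 followed (0.800), and SERPINF1 and THBS1 were the most opposed (-0.737).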

How the data were processed

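RNA was measured in 12 libraries of HOS cells, 3 in each of 4 groups, with groups and replicate numbers from the labels. According to the submitters' processing notes, the tools were FastQC, cutadapt 4.3, STAR 2.7.3a, Picard 2.25.6, MultiQC 1.10.1 and featureCounts of Subread 2.0 with GRCh38. The authors deposited whole-number counts of reads per gene without normalization. The annotation release, the strand setting and whether molecular identifiers were collapsed are not given in the sources used here. The labels do not say whether replicates came from separate cultures, so P values measure only the spread between these libraries. Libraries were compared for duplication within groups only, and there no library duplicated another.

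Names and positions came from GENCODE release 29, in which 95 identifiers had no symbol. In R 4.3.3, edgeR 4.0.16 with TMM factors and filterByExpr (minimum count 10, minimum total 15) was fitted to all 12 libraries with a mean per group and 8 residual degrees of freedom. Two-sided P values received Benjamini-Hochberg adjustment over 12542 genes, with a threshold of 0.05. The standard error was approximated as the size of the log2FC over the square root of F. An exact permutation test of 3 against 3 libraries cannot give a P below 0.1 and was not used. The code was tested on simulated counts.

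Across genes, deviations from the group mean correlated between same-numbered libraries, at r of 0.329, 0.231 and 0.101 for Mock and upCIN85 replicates 1 to 3 and 0.356, 0.271 and 0.449 for siNeg and siCIN85. The numbers of the labels were therefore treated as pairing the libraries in a blocked fit, which is an alternative. The calls counted as reported, the confidence intervals and the figures of fitted values come from the fit without a block. Blocked values are given where they change a call. The alternatives are DESeq2 1.42.0, other filters and scalings, the block, 6-library fits and each library left out. The named genes are the 9 members, SH3KBP1, close partners (SERPINB2, PLG, F3, LRP1), list genes that passed, and for each member the 3 genes with the highest r of log2 CPM (offset 0.5). The members and lists were chosen with earlier results of these data known. Not every gene that the rule names is reported here.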

Additional observations from a re-analysis of the deposited data

How the results depend on the processing

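The number of the 9 genes that passed is followed in brackets by the number of all genes called under the same setting. In upCIN85 versus Mock it was 1 (154) as reported, 4 (637) without a filter on low counts, 5 (1035) with the replicate block over both experiments, 3 (545) with the replicate block in the siRNA experiment alone, 2 (281) in a fit of the 6 libraries compared, 3 (300) with DESeq2 and 0 to 2 (25 to 260) with 1 library left out. In siCIN85 versus siNeg it was 2 (131) as reported, 3 (617) without a filter, 4 (968) and 3 (429) with the replicate block in these forms, 1 (50) in a fit of 6 libraries, 3 (298) with DESeq2 and 1 to 4 (9 to 362) with 1 library left out. For the difference between the effects it was 3 (122) as reported, 5 (554) without a filter, 5 (918) and 4 (368) with the block, 3 (271) with DESeq2 and 0 to 3 (33 to 341) with 1 library left out. For siNeg versus Mock it was 0 under every alternative that gives this comparison. With DESeq2, SERPINF1 (adjusted P = 0.0448) and TFPI2 (0.0396) passed in upCIN85, and SERPINE2 (0.0432) in siCIN85. The cause of these changes was not tested.

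Values near 0 changed sign. With 1 library left out, the log2FC in upCIN85 ranged from -0.032 to 0.37 for PLAT, -0.018 to 0.41 for PLAUR and -0.073 to 0.26 for SERPINB7. In siNeg versus Mock it ranged from -0.083 to 0.31 for PLAT, -0.11 to 0.32 for PLAUR, -0.49 to 0.099 for SERPINB7, -0.19 to 0.65 for SERPINF1 and -0.025 to 0.28 for TFPI. In siCIN85 it ranged from -0.16 to 0.38 for LRP1. SERPINF1 had 8 to 57 counts per library outside upCIN85, and the part of counting error in its spread was not tested.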
